A study of Rattus norvegicus with 12 samples.

Results

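The Sprouty and Spred genes encode a family of intracellular inhibitors of the Ras and ERK pathway, and they were followed here through the 7 genes of the rat count table with the symbols Spry1, Spry2, Spry3, Spry4, Spred1, Spred2 and Spred3, out of 30454 genes in all. The genes were taken by symbol, from a list drawn up with earlier results of these data known. RNA was sequenced in bulk from 12 libraries of rat cells labelled PC12, in 3 groups of 4. The rTMS-MSCs group had undergone oxygen-glucose deprivation and reoxygenation and then received both mesenchymal stem cells and repetitive transcranial magnetic stimulation at 10 Hz. The MSCs group had the same deprivation and the stem cells without stimulation. The OGDR group had the deprivation and reoxygenation with neither treatment. The series text gives 48 h after treatment as the time point. All groups thus share the deprivation, and no undeprived cells and no cells stimulated without stem cells were analysed here. Neither the species of the stem cells nor the way they met the labelled cells is given in the sources used here. In bulk RNA, fewer cells of a type and less RNA per cell cannot be told apart.

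Growth factors bind receptor tyrosine kinases, which use adaptor proteins to load Ras with GTP, and Ras then drives the kinases Raf, MEK and ERK. Sprouty proteins are phosphorylated when such receptors fire and act on adaptors and on the ubiquitin ligase Cbl, while Spred proteins bring the Ras-inactivating protein neurofibromin to the membrane. Several of these genes are themselves switched on by ERK, which makes them negative feedback. PC12 is a rat adrenal chromaffin tumour line, known for growing neurites when nerve growth factor keeps ERK active, and Spred proteins were found to inhibit that response.

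Each library held between 18246250 and 20471838 counts assigned to genes. A gene is said to rise or fall only where its adjusted p was under 0.05 in the edgeR quasi-likelihood (QL) test, which covered 13692 genes with Benjamini-Hochberg adjustment over all of them. Levels are given as CPM, counts scaled to the same TMM-adjusted library total. CPM is not corrected for transcript length, so levels are compared between groups for 1 gene and never between genes. Of the chromaffin markers, 1 of 11 averaged at least 10 CPM and 5 of 11 were under 1 CPM in every library. Ddc, which makes dopamine, had no count. The marker Th had a mean of 0.614 CPM in rTMS-MSCs, 0.673 CPM in MSCs and 0.151 CPM in OGDR. The summed level of the 11 was 209 to 225 CPM in rTMS-MSCs, 198 to 243 CPM in MSCs and 281 to 350 CPM in OGDR. The granule protein Scg2 carried most of it, at a mean of 207 CPM in rTMS-MSCs, 203 CPM in MSCs and 293 CPM in OGDR. Of 8 Schwann and glial markers, 6 averaged at least 10 CPM. Their summed level was 1042 to 1150 CPM in rTMS-MSCs, 1064 to 1137 CPM in MSCs and 905 to 985 CPM in OGDR. The 10 stromal markers summed to 281 to 359 CPM in rTMS-MSCs, 368 to 391 CPM in MSCs and 342 to 358 CPM in OGDR. The receptor Pdgfra carried most of that sum, at a mean of 241 CPM in rTMS-MSCs, 292 CPM in MSCs and 286 CPM in OGDR. Of the 10, 4 were under 1 CPM in every library, and Lum had no count. The 7 macrophage markers summed to under 5 CPM in every library, and Adgre1 and C1qa had no count. Mitochondrial transcripts made up 3.06 ± 0.188% of counts in rTMS-MSCs, 2.76 ± 0.209% in MSCs and 3.42 ± 0.210% in OGDR (SD, n = 4). The part of these differences in the results was not tested.

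The libraries numbered 3 of the rTMS-MSCs and MSCs groups bear on the comparison of those groups. It called 2475 genes with all libraries, 677 genes (4.9% of those tested) without both, 1480 without rTMS-MSCs 3 and 1006 without MSCs 3. It called 1313 without MSCs 1. Results for that comparison are therefore given with and without the number 3 libraries. Nothing in the labels ties the 4 libraries of a group to separate cultures, so the spread behind each p-value may be technical.

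Promoter windows are shown for the 3 members that differ most in behaviour below: Spry1, the member that was higher with stem cells, Spry4, which was lower in both steps with all libraries, and Spred2, which was lower with stimulation. Each window holds the 250 bases before a RefSeq transcript start in build GRCr8, read along the gene's strand, outside the annotated transcript. The counts themselves were made on build mRatBN7.2, so these coordinates do not apply to them. RefSeq gave a window for all 7 members. Searched on both strands were AGAACA (a site for 1 unit of the paired glucocorticoid receptor, in 17.5% of all 33469 windows of this length), TGACG (the core of the cyclic AMP response element, 18.2%), GCGGGGGCG (Egr, 2.45%), CCGGAAG (the core of Ets factors, 7.27%) and CACGTG (the E-box, 5.59%). CCATTCAT was added after the Spry4 window had been read. Capitals mark every match, and no 2 kinds of match overlap.
Spry1, chr2:122485097-122485346, plus strand: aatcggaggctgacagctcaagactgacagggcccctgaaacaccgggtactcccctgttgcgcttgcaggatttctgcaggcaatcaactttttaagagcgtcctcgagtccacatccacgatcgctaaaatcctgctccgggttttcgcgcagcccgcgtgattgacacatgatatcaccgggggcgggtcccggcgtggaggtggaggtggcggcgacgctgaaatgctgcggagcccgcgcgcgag
Spry4, chr18:30702547-30702796, minus strand: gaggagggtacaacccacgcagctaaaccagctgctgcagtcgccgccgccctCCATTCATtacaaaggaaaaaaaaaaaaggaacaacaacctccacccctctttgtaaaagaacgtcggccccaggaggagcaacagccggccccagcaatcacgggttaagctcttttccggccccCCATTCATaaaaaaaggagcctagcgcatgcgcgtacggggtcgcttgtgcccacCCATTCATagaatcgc
Spred2, chr14:98350327-98350576, plus strand: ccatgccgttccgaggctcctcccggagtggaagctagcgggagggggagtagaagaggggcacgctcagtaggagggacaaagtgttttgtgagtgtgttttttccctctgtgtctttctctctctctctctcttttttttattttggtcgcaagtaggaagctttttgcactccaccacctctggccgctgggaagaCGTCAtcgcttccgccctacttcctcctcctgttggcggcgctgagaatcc
The Spry4 window held CCATTCAT 3 times, beginning 197, 71 and 16 bases before the start. Over all windows, 280 (0.837%) held it at least once and 4 held it more than once. The Spred2 window held TGACG once, on the opposite strand and beginning 51 bases before the start, and the Spry1 window held none of the 6. These are matches of letters, not sites.

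Among the Sprouty genes, Spry1 stood out by its direction. Spry1 restrains the receptor of glial cell line-derived neurotrophic factor in the developing kidney. In rTMS-MSCs it had 70.7, 64.5, 68.3 and 75.1 CPM, in MSCs 66.3, 61.2, 59.9 and 60.7 CPM, and in OGDR 26.1, 27.2, 23.5 and 28.5 CPM. Every library with stem cells lay above every OGDR library. With stem cells alone Spry1 was 2.36-fold higher than in OGDR (log2 fold change 1.24 ± 0.0759 (SE), QL test, adjusted p = 1.45e-10), and its fold change ranked 185 from the top among the 13692 tested genes. Between rTMS-MSCs and MSCs the libraries overlapped and the difference did not pass (log2 fold change 0.17, 95% interval 0.015 to 0.32, QL adjusted p = 0.112; without both number 3 libraries 0.16, QL adjusted p = 0.287).

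Spry4 went the other way. Its protein can hold back ERK activation that does not pass through Ras. Levels were 29.5, 26.2, 26.1 and 30.3 CPM in rTMS-MSCs, 38.7, 32.0, 31.9 and 34.2 CPM in MSCs, and 65.7, 60.5, 63.9 and 58.7 CPM in OGDR. The 3 groups did not overlap and their order was rTMS-MSCs below MSCs below OGDR. Spry4 fell with stem cells (log2 fold change -0.86 ± 0.0813 (SE), QL adjusted p = 9.61e-08) and fell again with stimulation on top of them (-0.29 ± 0.0833, QL adjusted p = 0.0228). The difference between rTMS-MSCs and OGDR was -1.15 ± 0.0822 (QL adjusted p = 1.43e-09), by which its level decreased by 54.9% in rTMS-MSCs, and it ranked 102 from the bottom by fold change. The fall with stimulation did not pass without rTMS-MSCs 2 (QL adjusted p = 0.0695), without rTMS-MSCs 3 (0.0605), without MSCs 1 (0.0989), or without both number 3 libraries (0.0638, log2 fold change -0.29).

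Spry2, whose protein binds Cbl and is known for slowing the breakdown of the epidermal growth factor receptor, was lower with stem cells too. It had 96.9, 91.4, 93.7 and 96.5 CPM in rTMS-MSCs, 92.5, 84.9, 83.9 and 85.8 CPM in MSCs, and 120.1, 132.5, 128.5 and 130.6 CPM in OGDR. All OGDR libraries lay above all others, while 1 MSCs library reached into the range of rTMS-MSCs. Spry2 fell in MSCs against OGDR (log2 fold change -0.56 ± 0.0562 (SE), QL adjusted p = 2.22e-07) and in rTMS-MSCs against OGDR (-0.44 ± 0.0560, QL adjusted p = 5.66e-06). In rTMS-MSCs against MSCs its estimate pointed up but did not pass (0.12, 95% interval 0.0072 to 0.24, QL adjusted p = 0.124; without both number 3 libraries 0.11, QL adjusted p = 0.33). Spry4 and Spry2 thus both fell with stem cells, and only for Spry4 did the stimulated libraries lie wholly below the MSCs libraries.

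Spry3, the remaining Sprouty gene, was barely detected. It had 5, 11, 3 and 10 counts in rTMS-MSCs, 7, 2, 16 and 3 counts in MSCs and 8, 5, 2 and 3 counts in OGDR, and was left out of the test by the filter on low counts. The groups overlapped throughout. The ratio of its summed counts, per library size, was 1.67 for rTMS-MSCs over OGDR with an exact 95% interval of 0.897 to 3.20, 1.64 (0.876 to 3.15) for MSCs over OGDR, and 1.02 (0.585 to 1.78) for rTMS-MSCs over MSCs. These intervals cover counting error only, and a difference in Spry3 was not detectable at this depth.

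**Figure D1:**
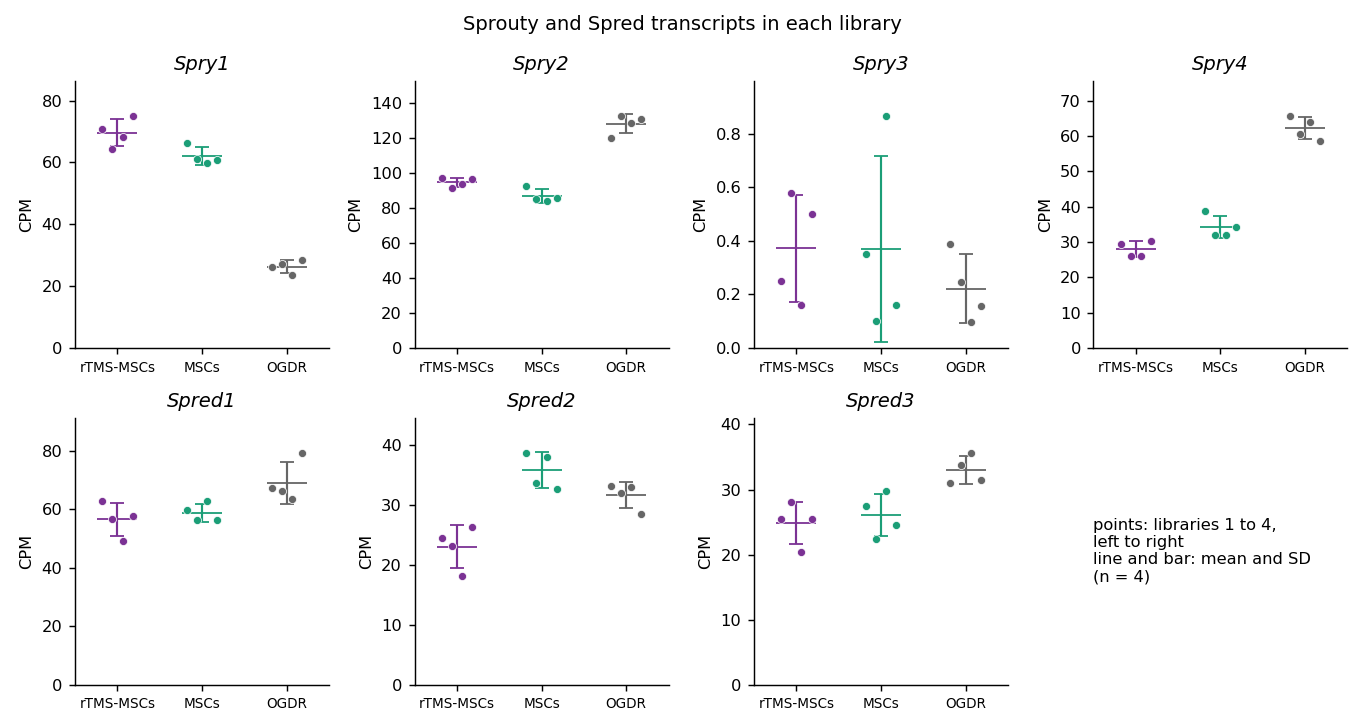
Level of each of the 7 genes (CPM, y axis from 0) in rTMS-MSCs, MSCs and OGDR; points are libraries, lines and bars the mean and SD of 4. Spry1 is higher in the 8 libraries with stem cells, and Spry4 steps up from rTMS-MSCs to MSCs to OGDR. Spred2 is lowest in rTMS-MSCs, where its mean is 23.0 CPM.

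Of the Spred genes, Spred2 was the one that moved with stimulation. Spred2 and Spred1 both bind Ras-pathway proteins through an N-terminal EVH1 domain and membranes through a C-terminal Sprouty-like domain, and mice without Spred2 are dwarfed. Spred2 had 24.5, 23.1, 18.1 and 26.3 CPM in rTMS-MSCs, 38.7, 33.7, 38.0 and 32.7 CPM in MSCs, and 33.1, 31.9, 33.0 and 28.4 CPM in OGDR. All 4 rTMS-MSCs libraries lay below all 8 others, and the lowest value was that of rTMS-MSCs 3. Spred2 fell in rTMS-MSCs against MSCs (log2 fold change -0.63 ± 0.103 (SE), QL adjusted p = 0.00122), where its p ranked 56 from the smallest among the 13692 genes. Without both number 3 libraries the change was -0.51 (QL adjusted p = 0.00266). Spred2 also fell in rTMS-MSCs against OGDR (-0.46 ± 0.103, QL adjusted p = 0.00208). With stem cells alone it did not pass (0.18, 95% interval -0.034 to 0.39, QL adjusted p = 0.242).

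Spred1, whose loss in people gives a disorder that resembles neurofibromatosis, differed by less. It had 63.0, 56.8, 49.1 and 57.6 CPM in rTMS-MSCs, 59.9, 56.6, 62.9 and 56.3 CPM in MSCs, and 67.3, 66.3, 63.5 and 79.5 CPM in OGDR. The OGDR libraries all lay above the others, the nearest by a small margin. Spred1 fell in rTMS-MSCs against OGDR (log2 fold change -0.29 ± 0.0827 (SE), QL adjusted p = 0.0116), a call that was lost without OGDR 4, its highest library (-0.22, QL adjusted p = 0.0576). In MSCs against OGDR it missed the threshold (-0.23, 95% interval -0.40 to -0.059, QL adjusted p = 0.0539). It passed there without rTMS-MSCs 1 (QL adjusted p = 0.0497), rTMS-MSCs 3 (0.0184), MSCs 3 (0.0479) or OGDR 3 (0.0404). Between rTMS-MSCs and MSCs the groups overlapped (-0.056, 95% interval -0.23 to 0.12, QL adjusted p = 0.672), and without both number 3 libraries the estimate was 0.039.

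Spred3, which lacks a working KIT-binding domain, was highest in OGDR, as Spred1 was. It had 25.4, 28.1, 20.4 and 25.5 CPM in rTMS-MSCs, 27.4, 22.4, 29.7 and 24.6 CPM in MSCs, and 31.0, 33.8, 35.7 and 31.4 CPM in OGDR. The OGDR libraries were above all others. Spred3 fell in rTMS-MSCs against OGDR (log2 fold change -0.41 ± 0.104 (SE), QL adjusted p = 0.00496) and in MSCs against OGDR (-0.34 ± 0.103, QL adjusted p = 0.0232). The call in MSCs against OGDR was lost without MSCs 2 (QL adjusted p = 0.0893), MSCs 4 (0.0636), OGDR 2 (0.0572) or OGDR 3 (0.0745). Between rTMS-MSCs and MSCs the libraries overlapped (-0.068, 95% interval -0.29 to 0.15, QL adjusted p = 0.684), and without both number 3 libraries the estimate was 0.084. The library rTMS-MSCs 3 held the lowest value of its group for each of the 3 Spred genes.

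**Figure D2:**
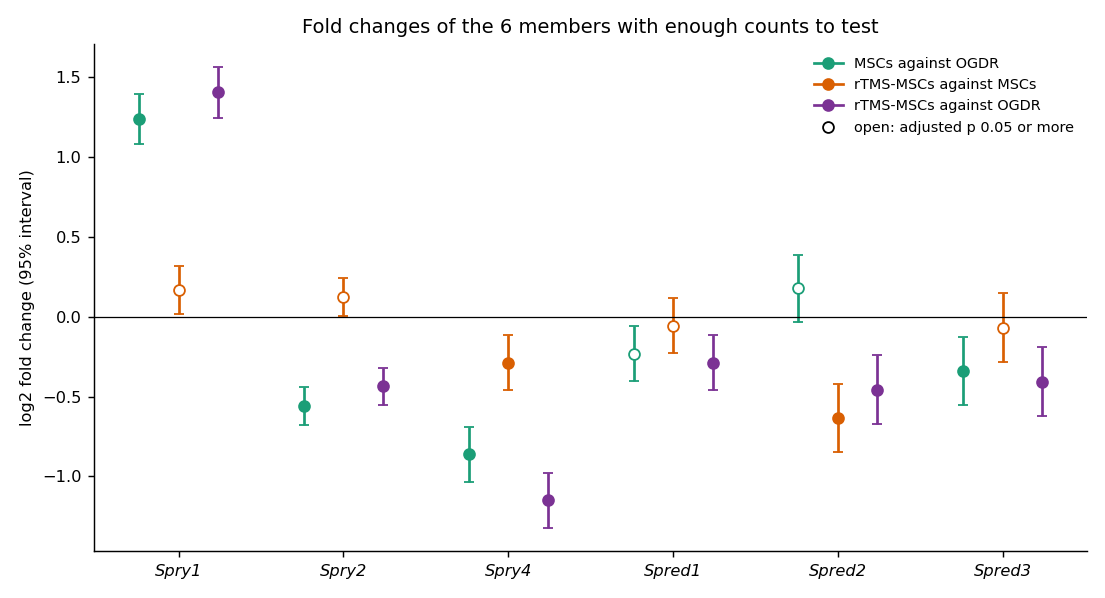
Log2 fold change (y axis) with its 95% interval for the 6 tested genes in the 3 comparisons; filled points have a QL adjusted p under 0.05. Spry1 is the single gene above 0 among filled points, at 1.24 in MSCs and 1.40 in rTMS-MSCs against OGDR, and Spred2 is furthest below 0 in rTMS-MSCs against MSCs, at -0.63.

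Counted over the members, stem cells alone left 1 of the 6 tested genes higher and 3 lower than in OGDR. Over all genes 20.2% passed in that comparison, 11.6% higher and 8.63% lower. The values of 5 of the 6 did not overlap between the groups, against 24.7% of all genes. The median log2 fold change of the 6 was -0.29, beside -0.0021 over all tested genes, and the median size was 0.45 beside 0.16. Stimulation on top of stem cells left 0 of the 6 higher and 2 lower, where 18.1% of all genes passed, 7.14% higher and 10.9% lower. At an unadjusted p under 0.05 Spry1 and Spry2 were higher there (0.0326 and 0.0386), and the Wald test of DESeq2 also called 0 higher. Without both number 3 libraries 1 of the 6 was lower, Spred2. With all libraries, groups did not overlap for 2 of the 6, against 19% of all genes. Both treatments together, in rTMS-MSCs against OGDR, left 1 higher and 5 lower, where 32.4% of all genes passed, 16.2% in each direction. All 6 then had groups that did not overlap, against 30.3% of all genes. The 3 comparisons share libraries in pairs, so their counts are not separate evidence.

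The reads on the 4 Sprouty genes can be split within a library, where no scaling between libraries enters. Such shares depend on transcript length, so they are compared between groups for 1 gene at a time. They add up to the whole in each library, so a larger share of 1 gene lowers those of the others. The shares of the 4 genes are thus not separate evidence. Spry1 took 36.1 ± 0.749% of them in rTMS-MSCs, 33.8 ± 0.371% in MSCs and 12.1 ± 0.916% in OGDR (SD, n = 4). Spry4 took 14.5 ± 0.541% in rTMS-MSCs, 18.6 ± 0.759% in MSCs and 28.7 ± 1.87% in OGDR. Spry2 took 49.2 ± 1.05%, 47.3 ± 0.415% and 59.0 ± 1.64% in rTMS-MSCs, MSCs and OGDR. The number of Spry1 reads per Spry4 read was 2.40, 2.46, 2.62 and 2.47 in rTMS-MSCs, 1.71, 1.91, 1.88 and 1.77 in MSCs, and 0.397, 0.450, 0.368 and 0.486 in OGDR. The 3 groups were apart on this ratio. Since Spry1 was chosen for description beside Spry4 after their fold changes were known, the ratio is given without a test.

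Summed levels were taken over the genes of each subfamily. These sums are not corrected for transcript length, so they do not weigh the genes equally and are compared between groups only. The 4 Sprouty genes together had 193 ± 8.89 CPM in rTMS-MSCs, 183 ± 9.81 CPM in MSCs and 217 ± 3.46 CPM in OGDR. The 3 Spred genes together had 104 ± 11.5 CPM in rTMS-MSCs, 121 ± 8.96 CPM in MSCs and 134 ± 3.77 CPM in OGDR. Spred1 reads per Spred2 read were 2.48 ± 0.221 in rTMS-MSCs, 1.65 ± 0.0741 in MSCs and 2.21 ± 0.398 in OGDR. The MSCs libraries had the lowest values of that ratio, at most 1.72, while the rTMS-MSCs and OGDR libraries overlapped.

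**Figure D3:**
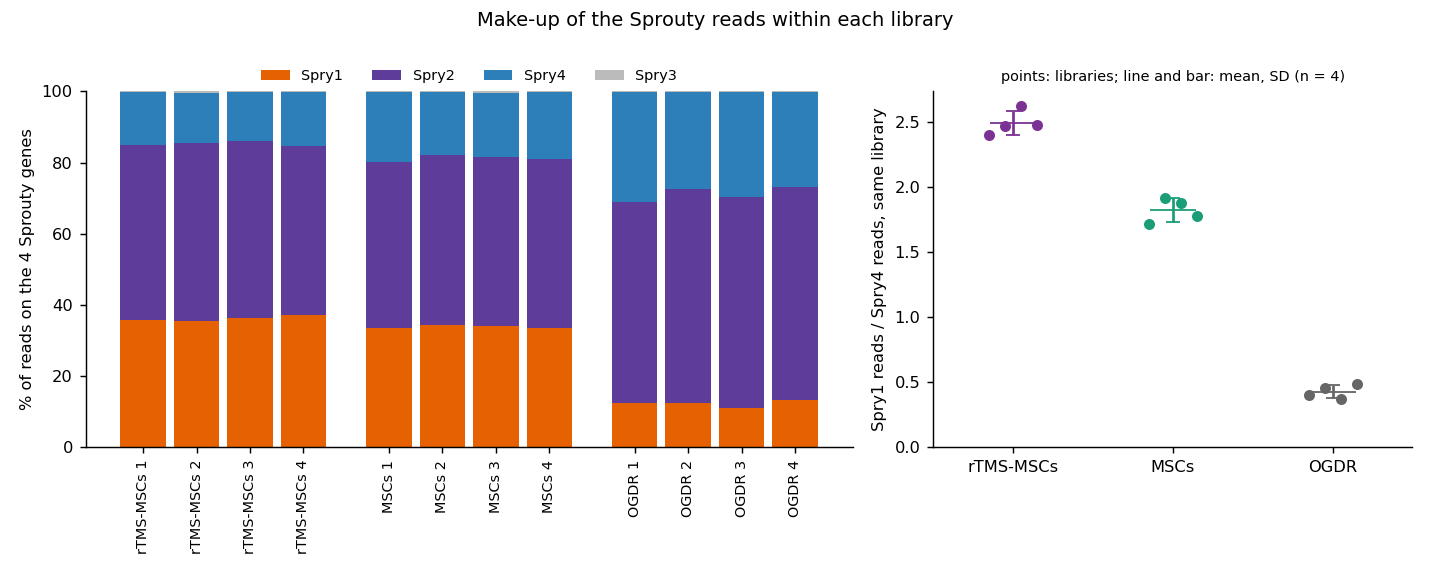
Left, the share (percent, stacked) of reads on the 4 Sprouty genes that each gene took in each library; right, Spry1 reads per Spry4 read in the same libraries, with mean and SD of 4. Spry1 takes 35.3% to 37.1% in rTMS-MSCs, 33.5% to 34.3% in MSCs and 10.9% to 13.1% in OGDR.

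Members also differed in how tightly the 4 libraries of a group lay together. The coefficient of variation of Spry2 was 2.75% in rTMS-MSCs, 4.45% in MSCs and 4.27% in OGDR. For Spred2 it was 15.3% in rTMS-MSCs, 8.42% in MSCs and 6.92% in OGDR, and for Spred3 it was 13.1%, 12.3% and 6.62% in the same groups. Spry2 had the most counts and Spry3 the fewest, so counting error differs between them. The part of counting error in the spreads above was not tested.

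For each member that passed in at least 1 comparison, the genes with the most similar pattern were taken as those with the smallest root mean square difference of centred log2 CPM over the 12 libraries. They were sought among 10251 other genes with a symbol and a mean of at least 5 CPM. For Spry1, whose own root mean square deviation was 0.63, they were Rassf4, a Ras-association domain protein (0.10), the proteoglycan Sdc4 (0.10) and the small GTPase Rhob (0.12). For Spry4 (0.50) they were the transferrin receptor Tfrc (0.11), Morc4 (0.14) and the Rap exchange factor Rapgef5 (0.14). For Spry2 (0.24) they were the protease inhibitor Serpine2 (0.064), the transcriptional cofactor Lmo4 (0.070) and Stk40 (0.081). For Spred2 (0.31) they were Nhsl1 (0.086), the membrane protein Crim1 (0.087) and the chromatin remodelling subunit Bptf (0.094). For Spred1 (0.17) they were Fbxl5, Gpatch2l and Plaa (0.065 to 0.071), and for Spred3 (0.23) Zbtb21, Ccnd2 and Slc25a37 (0.082 to 0.095). No member was among the nearest genes of another.

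The rest of the pathway was read from lists whose members overlap in part, and each count stands against the 20.2% of all genes that passed with stem cells, the 18.1% with stimulation, and the 4.9% with stimulation without both number 3 libraries. Genes listed for the fibroblast growth factor family, whose ligands induce Sprouty genes in development, were scarce, and 6 of 14 could be tested. Of the 6, Fgfbp3 encodes a binding protein and Fgf11 an intracellular member, so not all are ligands of the receptors. With stem cells 1 fell, Fgf9, with 6.58 CPM in MSCs and 17.7 CPM in OGDR (log2 fold change -1.42 ± 0.132, QL adjusted p = 7.65e-08). With stimulation 0 passed by the QL test, 0 had an unadjusted p under 0.05, and 0 passed by the Wald test of DESeq2. None passed without both number 3 libraries by the QL test either.

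Receptor tyrosine kinases, the inputs that Sprouty proteins restrain, showed 4 up and 1 down among 16 tested in MSCs against OGDR. Fgfr3, a fibroblast growth factor receptor, had 84.8 CPM in MSCs and 46.1 CPM in OGDR (0.88, QL adjusted p = 7.00e-08), and the collagen receptor Ddr1 had 146 CPM in MSCs and 93.7 CPM in OGDR (0.64). In rTMS-MSCs against MSCs 8 fell and none rose (0 at an unadjusted p under 0.05 and 0 by DESeq2), with a median of -0.29 beside 0.015 over all genes. Among them Erbb3, a neuregulin receptor of Schwann cells, had 114 CPM in rTMS-MSCs and 167 CPM in MSCs (-0.55, QL adjusted p = 0.000613), and the insulin receptor Insr had 19.9 CPM in rTMS-MSCs and 31.1 CPM in MSCs (-0.64). Without both number 3 libraries 3 fell, the median was -0.19, and Erbb3 (-0.41, QL adjusted p = 0.000538) and Insr (-0.39, 0.0374) still passed.

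Adaptors and Ras exchange factors had 2 up and 1 down among 15 with stem cells, a share near that of all genes, and 1 up and 3 down with stimulation. The docking protein Gab1 rose with stem cells (0.60, QL adjusted p = 2.02e-05). The adaptor Crk had 38.1 CPM in rTMS-MSCs and 61.3 CPM in MSCs (-0.68, QL adjusted p = 0.00461). Without both number 3 libraries Crk was the 1 of the 15 that fell (-0.46, QL adjusted p = 0.016). The docking protein Frs2, which links fibroblast growth factor receptors to the pathway, fell with stimulation (-0.46, QL adjusted p = 0.00629). Frs2 did not pass without both number 3 libraries (-0.33, QL adjusted p = 0.0516). Of the core kinases and Ras proteins, 3 rose and 1 fell among 12 with stem cells, and 1 rose and 1 fell with stimulation. Neither gene called with stimulation passed without both number 3 libraries. Mapk3, which encodes ERK1, had a mean of 0 CPM in every group and was not tested. Whether reads of Mapk3 were left unassigned in the counting was not checked, so the 0 does not show that the cells lacked it. The scaffold Ksr1, which brings Raf and MEK together, had 27.4 CPM in MSCs and 8.65 CPM in OGDR (1.66 ± 0.0931, QL adjusted p = 3.37e-11), and MEK1 itself, Map2k1, had 206 CPM in MSCs and 249 CPM in OGDR (-0.27).

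Among proteins known to bind Sprouty or Spred proteins, 16 of 17 listed genes were used and 15 tested. With stem cells 4 rose and 4 fell, and with stimulation 1 rose and 4 fell. Caveolin 1, Cav1, a membrane protein that binds Sproutys, had 1466 CPM in MSCs and 931 CPM in OGDR (0.66, QL adjusted p = 4.68e-09), and the ubiquitin ligase Cblb rose by 1.02. With stimulation the ligase Cbl had 9.57 CPM in rTMS-MSCs and 16.5 CPM in MSCs (-0.78, QL adjusted p = 0.00308). Nf1, the neurofibromin gene, had 12.2 CPM in rTMS-MSCs and 20.3 CPM in MSCs (-0.73, QL adjusted p = 0.00865). Without both number 3 libraries 1 of the 15 fell, Cbl (-0.58, QL adjusted p = 0.0183), and Nf1 did not pass (-0.42, QL adjusted p = 0.0798).

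Other negative regulators of ERK gave 3 up and 2 down among 16 with stem cells, while 6 fell and none rose with stimulation (1 higher at an unadjusted p under 0.05, 0 by DESeq2), a median of -0.13 beside 0.015 over all genes. Errfi1, an inhibitor of the epidermal growth factor receptor, rose with stem cells (0.85, QL adjusted p = 2.40e-08), as Spry1 did. Dusp6, the cytoplasmic ERK phosphatase, had 190 CPM in rTMS-MSCs and 249 CPM in MSCs (-0.39 ± 0.0526, QL adjusted p = 0.000595). Without both number 3 libraries Dusp6 was the 1 regulator that fell (-0.35, QL adjusted p = 0.000624), and the list median was -0.096. Transcripts known to be driven by ERK gave 3 up and 14 down among 23 with stem cells, with a median of -0.27 beside -0.0021 over all genes. The Ets factor Etv4 (-0.50) and Phlda1 (-0.68) fell, whereas Fos rose by 0.90. With stimulation 5 of the 23 rose and 4 fell, and without both number 3 libraries 3 rose and 1 fell. Egr1 had 91.8 CPM in rTMS-MSCs and 23.0 CPM in MSCs (2.00, QL adjusted p = 6.94e-13). Without both number 3 libraries its change was 2.01 (QL adjusted p = 1.20e-15). With 33.4 CPM in OGDR, Egr1 had fallen with stem cells alone (-0.54, QL adjusted p = 2.08e-05). In rTMS-MSCs against OGDR it rose by 1.46 (QL adjusted p = 5.85e-12). No Sprouty or Spred gene rose with stimulation, though the 95% intervals of Spry1 and Spry2 lay above 0.

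**Figure D4:**
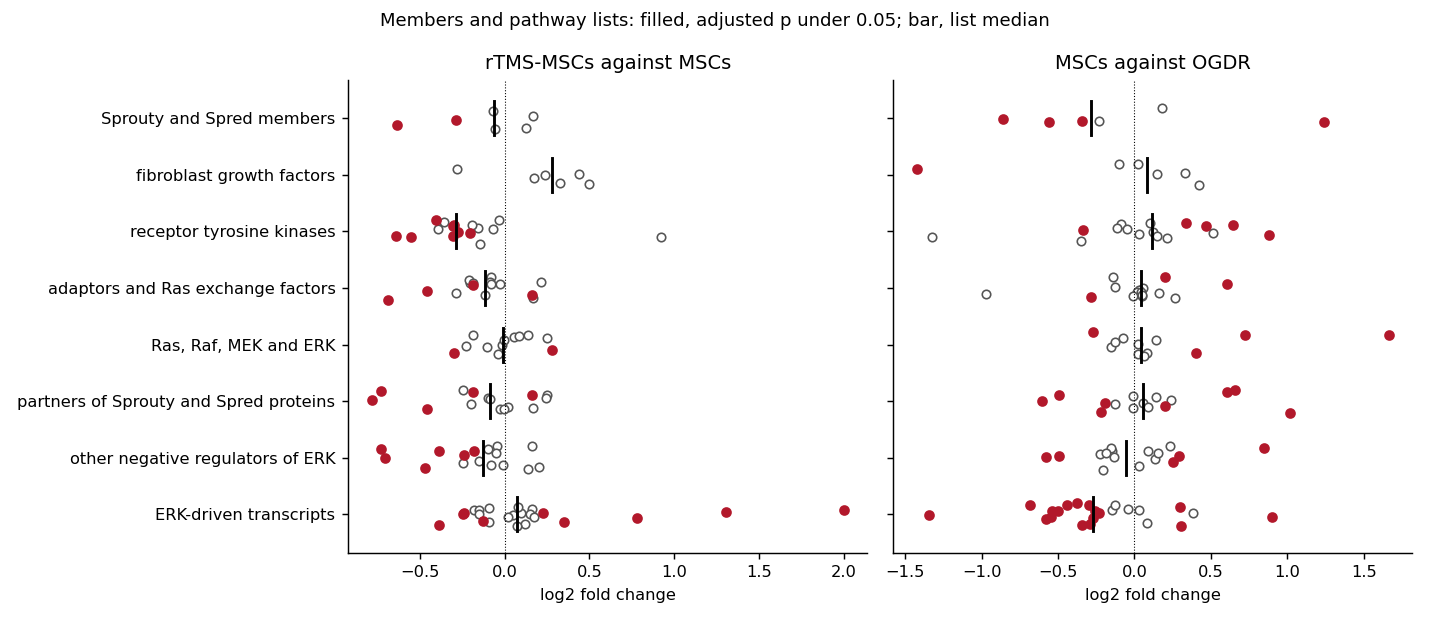
Log2 fold change (x axis) of each tested gene of the members and of 7 pathway lists, rTMS-MSCs against MSCs on the left and MSCs against OGDR on the right; filled points have a QL adjusted p under 0.05 and bars are list medians. With stimulation the filled receptor tyrosine kinases and other negative regulators are all below 0, and with stem cells most filled ERK-driven transcripts are below 0.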

How the data were processed

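The deposited table holds raw counts per gene, which the authors made, per the submitters' processing notes, with HISAT2 2.1.0, HTSeq 0.11.2 and build mRatBN7.2. The notes also name DESeq2 1.40.1. No source used here gives the strand setting of the counting, so reads from a gene and an antisense partner cannot be told apart. In RefSeq GRCr8, Spry3 and Spred3 each overlap 1 other protein-coding locus and Spred1 a pseudogene. Reads on no feature were 51.7% to 52.7% of the table and were left out, as were the other HTSeq summary lines.

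Genes were kept by filterByExpr (minimum count 10, minimum total 15), which left 13692. Libraries were scaled by TMM and fitted together with glmQLFit and glmQLFTest in edgeR 4.0.16 under R 4.3.3, with contrasts of group means, 2-sided p-values and an adjusted threshold of 0.05. The standard error is the size of the log2 fold change over the root of F, and 95% intervals use the test's degrees of freedom. Log2 CPM used a prior count of 2. The labels do not say whether replicate numbers pair the samples, and the numbers were not used in the main fit. The script was tested on simulated data. Alternatives were other scalings, DESeq2 1.42.0, limma 3.58.1 voom, other filters, a fit of the compared libraries only, a replicate block, leaving out each library and, added after seeing the data, both number 3 libraries.

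Genes named for a change are the 7 members and, per list and comparison, some of the 4 of smallest p. The 3 nearest patterns per member are also named. Members and lists were chosen with earlier results of these data known. The series text speaks of a microarray and 20 samples, while the labels describe 12 sequencing libraries. Some items are not reported here.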

Additional observations from a re-analysis of the deposited data

How the results depend on the processing

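Of the 18 tests of members, 12 kept their direction and their side of the threshold under all 21 alternatives, among them every test of Spry1, Spry2 and Spred2 and, against OGDR, of Spry4. Over these alternatives Spry1 in MSCs against OGDR stayed between 1.19 and 1.28, Spry4 in rTMS-MSCs against OGDR between -1.19 and -1.12, and Spred2 in rTMS-MSCs against MSCs between -0.71 and -0.51. Spred1 in MSCs against OGDR passed with upper quartile scaling (-0.25), DESeq2 (-0.23), voom with quality weights (-0.21), no filter (-0.23), the 8 libraries compared (-0.23) and without both number 3 libraries (-0.26), and ran from -0.27 to -0.16 when single libraries were left out. Spred3 in the same comparison ran from -0.41 to -0.27, and Spred1 in rTMS-MSCs against OGDR from -0.34 to -0.22. In rTMS-MSCs against MSCs, leaving out single libraries gave 1006 to 3196 called genes and 1 to 2 members lower, with Spry4 from -0.33 to -0.22, Spred1 from -0.11 to 0.0077 and Spred3 from -0.13 to 0.017. Spred1 changed sign without rTMS-MSCs 3 (0.0077), and Spred3 without rTMS-MSCs 3 (0.017) or MSCs 3 (0.0034). Without both number 3 libraries there were 677 called genes and 1 member lower, with Spry4 at -0.29, Spred1 at 0.039 and Spred3 at 0.084. These settings have fewer libraries; the cause of the sign changes was not tested. Deviations of libraries with the same number correlated weakly (-0.21 to 0.13, 1 of 12 pairs over 0.1, 4 of 12 libraries closest to their own number). The lowest correlation, -0.21, was that of rTMS-MSCs 3 with MSCs 3, followed by rTMS-MSCs 3 with OGDR 3 (-0.17). Such correlations cannot settle whether the numbers pair the samples. With the replicate block 2577, 1995 and 4185 genes were called in MSCs against OGDR, rTMS-MSCs against MSCs and rTMS-MSCs against OGDR, and no member call changed. Spry3 could be tested only with no filter, where its adjusted p was 0.52 to 1. Its counts of 2 to 16 per library limit any statement on it.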
